A study of Rattus norvegicus with 44 samples.

Results

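Interferon response genes were followed in the dentate gyrus of 44 male F344 rats, with 1 RNA library for each rat. The 9 genes were Irf7, Irf9, Isg15, Ifit3, Oasl2, Bst2, Gbp2, Gbp5 and Usp18, out of 18347 gene identifiers in the table, and all 9 passed the filter on low values (a mean of at least 5). They and the pathway and marker lists used below were chosen with earlier results of these data known. Their counts beside the shares of all genes are therefore a description and not a test. The young rats (YNG, n = 10) were labelled 6 months of age and received vehicle. The older rats were labelled 12 months, the age at which treatment began, and received vehicle (AV, n = 12), ABT-263 (AA, n = 11) or dasatinib plus quercetin (ADQ, n = 11). ABT-263 (navitoclax) inhibits anti-apoptotic BCL2 proteins, dasatinib inhibits tyrosine kinases and quercetin is a plant flavonoid, and these agents are used as senolytics, drugs meant to remove senescent cells. Rats were dosed by oral gavage in repeated cycles over several months and were therefore older at dissection than the label says. The labels give age only, and the treatment of each older rat came from the deposited table of sample attributes, matched by rat name.

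Values are reads scaled by the authors across libraries, called normalized values here. The estimated depth ran from 10166556 to 24328321 reads a library (median 16320220), and the 9 genes were covered by between 7 (Usp18) and 576 (Gbp2) estimated reads in a rat. All 8 dentate granule cell markers listed were found, with a summed level of 3123 to 14522 in every library. The 6 CA1 pyramidal cell markers listed summed to between 1657 and 34856, with the highest level in AA rat 4107. The libraries therefore differed in the level of CA1 markers. In 4 AV rats (3989, 3999, 4009 and 4568) Prf1, which encodes the pore-forming protein of cytotoxic lymphocytes, stood at 199 to 461, and the highest value among the other 40 rats was 13.9. Cd8a (6.52 to 116.8), Nkg7 (33.3 to 214), Gzmk (14.1 to 210.1) and Gzmb (15.1 to 51.2) were also above every other rat in these 4. Cd3e, a defining T cell marker, was not, at 1.07 to 159 in the 4 and up to 233 in another AV rat, and Cd3d, Cd3g, Cd8b and Trac were not in the table used here. Rat 3989 further had the highest summed level of the microglia, astrocyte, oligodendrocyte, endothelial and red blood cell lists. It was also highest for the border-associated macrophage, meninges, and monocyte and neutrophil lists, the last with all 5 markers found below the filter. Values without these 4 are given beside the results that rest on AV rats where a call or a size changes. The rats also carry numbers of an early (a) and a late (b) series, with 6, 6, 5 and 5 rats of YNG, AV, AA and ADQ in series a and 4, 6, 6 and 6 in series b. The labels name no batch.

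Type I interferons bind a receptor made of Ifnar1 and Ifnar2, and the kinases on it activate transcription factors. These join Irf9 in a complex that binds a DNA motif called the interferon-stimulated response element and switches on a large set of antiviral genes. Interferon gamma acts through another receptor and leads to binding at gamma-activated sequences. Irf7 is itself induced and amplifies the production of type I interferon, and Usp18 and Isg15 close a feedback loop, since Usp18 removes the ubiquitin-like protein Isg15 from its targets and blocks the receptor. In the brain, microglia, endothelial cells and astrocytes can all respond to interferons.

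Promoter windows of the members are shown because genes of this response are known to be switched on through short motifs near their start. RefSeq (GRCr8, another assembly than the rn6 of the deposited values) gave a window of 300 bases, from 250 bases before the gene start to 50 after it, for 7 of the 9 genes, and none for Isg15 and Usp18. The windows were searched for the core of the response element, 2 copies of GAAA with any 2 bases between them, on both strands, and for the core of the gamma-activated sequence, TTC and GAA with any 3 bases between them, which reads the same on both strands. The part of each window around its matches is printed 5′ to 3′ on the strand of the gene, with matches in capitals.
Irf7, chr1:205800043-205800122 (- strand): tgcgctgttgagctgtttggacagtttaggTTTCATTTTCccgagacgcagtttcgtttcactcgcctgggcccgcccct
Irf9, chr15:33065707-33065785 (+ strand): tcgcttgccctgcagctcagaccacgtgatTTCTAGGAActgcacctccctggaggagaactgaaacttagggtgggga
Ifit3, chr1:241527252-241527331 (+ strand): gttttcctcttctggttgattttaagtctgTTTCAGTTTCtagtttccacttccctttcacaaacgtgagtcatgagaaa
Oasl2, chr12:47383287-47383366 (- strand): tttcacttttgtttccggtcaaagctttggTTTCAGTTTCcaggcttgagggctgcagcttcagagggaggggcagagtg
Bst2, chr16:18255043-18255134 (- strand): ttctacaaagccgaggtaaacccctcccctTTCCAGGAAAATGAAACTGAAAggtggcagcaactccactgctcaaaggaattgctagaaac
Gbp2, chr2:234005666-234005745 (+ strand): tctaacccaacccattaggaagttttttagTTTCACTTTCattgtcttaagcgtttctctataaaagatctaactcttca
Gbp5, chr2:233910913-233910992 (+ strand): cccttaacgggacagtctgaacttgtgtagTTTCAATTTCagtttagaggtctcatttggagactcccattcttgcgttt
The response element core was found in 6 of the 7 windows, all but that of Irf9, and in 3.92% of all 33469 rat windows of that length. It lay on the opposite strand in Irf7 (69 to 60 bases before the start), Gbp5 (56 to 47), Gbp2 (31 to 22), Oasl2 (151 to 142) and Ifit3 (44 to 35). Oasl2 and Ifit3 shared the same 10 letters of the core. In Bst2 there were 2 overlapping copies on the strand of the gene, from 131 to 116 bases before the start, and the gamma-activated core overlapped the first of them. The gamma-activated core was found in 2 of the 7 windows, those of Irf9 and Bst2, and in 8.87% of all windows. Outside the members, the response element core was in 28 of 48 windows of the other type I interferon stimulated genes and in 0 of 8 windows of the kinases and transcription factors of the pathway. A match is a description of the letters and not evidence that a factor binds there.

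**Figure D1:**
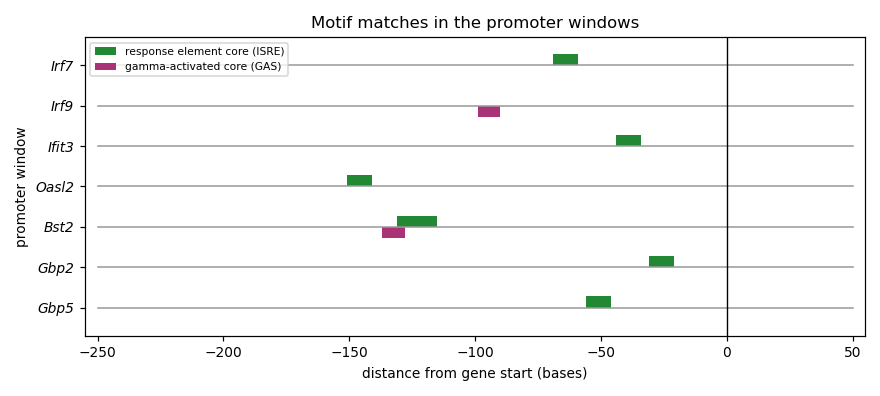
Positions of the motif matches in the promoter windows of 7 members, in bases from the gene start (0), with the window drawn as a grey line. Green blocks are the response element core and purple blocks the gamma-activated core; the Gbp2 match is nearest to the start (31 to 22 bases before it) and the Oasl2 match farthest (151 to 142).

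Older vehicle rats were compared with young rats to ask which members differ with age. At an unadjusted p below 0.05 in limma on log2(value + 1), 4 of 9 members rose in AV, namely Irf7, Ifit3, Gbp2 and Bst2, against 10.6% of all 15598 genes tested called higher. None of the 9 fell, against 10.7% of all genes called lower. No member passed an adjusted p of 0.05 in this comparison (lowest 0.102, Ifit3). The older groups were then compared with each other. ADQ was below AV in 8 of 9 members, all but Irf9, against 5.9% of all genes called lower, and above it in 0 of 9 (3.42% of all genes). AA was below AV in 4 of 9 members, Isg15, Oasl2, Gbp2 and Gbp5, against 3.1% of all genes called lower, and above it in 0 of 9 (1.4%). Between the older groups limma gave 0 genes with an adjusted p below 0.05, although 484 genes were lower and 219 higher in AA than in AV at an unadjusted p below 0.05, and 921 lower and 533 higher in ADQ than in AV. The lowest adjusted p of a member was 0.134 (Oasl2 in ADQ against AV). All 3 comparisons share the AV rats.

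Without the 4 AV rats with high Prf1, a choice made after seeing the data, the counts fell. Irf7 alone was then called higher in AV than in YNG (log2 difference 0.40, p = 0.03996), with 5.31% of all genes higher and 4.01% lower. In ADQ against AV, 4 members stayed lower (Irf7, Oasl2, Gbp5 and Usp18), with 2.6% of all genes called lower, and in AA against AV 2 did (Isg15 and Gbp5), with 1.17%. The summed level of the 10 T and NK cell markers found, of 15 listed, ran from 121 to 1237 in AV (median 327), from 66.2 to 224 in YNG, from 97.5 to 300.3 in AA and from 118 to 215 in ADQ. The 5 B cell markers listed were not in the table used here. The summed level of the endothelial list was 1614 to 5004 in YNG, 2668 to 9833 in AV, 2788 to 4349.8 in AA and 2544 to 3361 in ADQ, and that of the microglia list 3564 to 6237, 4585 to 7918, 3741 to 6106 and 3998 to 5072. With all rats, 10.6% of all genes were higher in AV than in YNG, and 5.9% lower in ADQ and 3.1% lower in AA than in AV. Of 7 endothelial markers tested, AV exceeded YNG in 6 and ADQ was below AV in 6, and without the 4 AV rats these counts were 4 and 0. Of 9 microglia markers tested, AV exceeded YNG in 3 and ADQ was below AV in 5, with 2 and 3 left without those rats. Of 7 oligodendrocyte markers tested, AV exceeded YNG in 6, also without those rats, and ADQ was below AV in 5, with 2 left. All 4 red blood cell markers tested were lower in ADQ than in AV, with 0 left, and of 8 astrocyte markers AV exceeded YNG in 3, with 0 left. Of 4 choroid plexus markers tested, 2 were lower in ADQ than in AV, with 0 left, and 0 were called in AV against YNG. Of 6 T and NK cell markers tested, AV exceeded YNG in 5, AA was below AV in 5 and ADQ in 4, and each count was 1 without those rats. That fall was built into the choice of rats, since Prf1 is in this list. It therefore tests nothing. The part of the lymphocyte, endothelial, microglia, oligodendrocyte, astrocyte, red blood cell and choroid plexus markers in the member differences was not tested, nor was that of the CA1 and other marker lists. In bulk tissue, fewer cells of a type and less RNA per cell cannot be told apart.

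**Figure D2:**
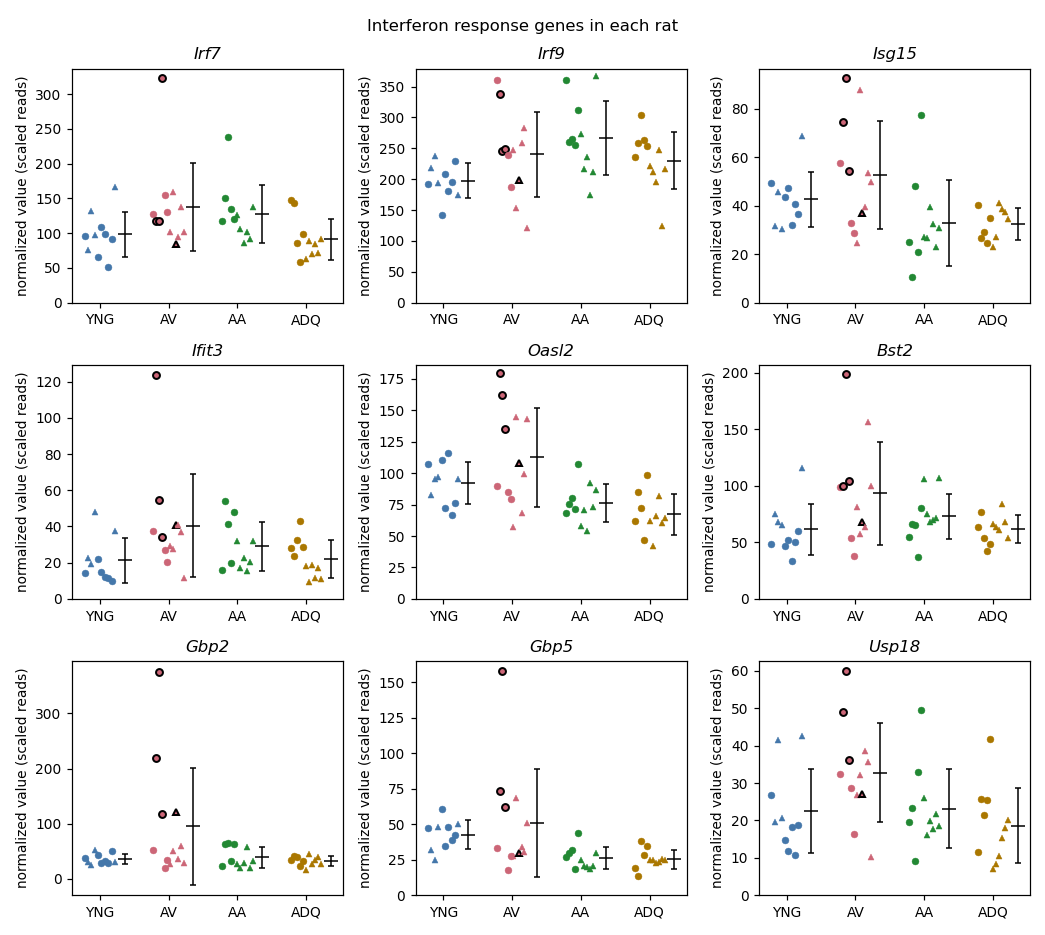
Normalized value of each of the 9 genes in every rat, by group, with circles for rat number series a, triangles for series b and bars for the group mean ± SD. Black outlines mark the 4 AV rats with Prf1 above 100, which hold the highest AV values of Isg15, Ifit3, Oasl2, Bst2, Gbp2, Gbp5, Usp18 and Irf7 but not of Irf9.

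Irf7 (ENSRNOG00000017414), the transcription factor that amplifies interferon production, was higher in AV and AA than in YNG and lower in ADQ than in AV and AA. Its lowest, median and highest normalized values in YNG rats were 50.9, 97.1 and 166. AV rats stood at 84.7, 123 and 323, AA rats at 86.1, 120.3 and 238 and ADQ rats at 59.2, 85.4 and 147. The groups overlapped, but 10 of 12 AV rats and 9 of 11 AA rats lay above the YNG median, and all 11 AA rats above the ADQ median. AV exceeded YNG (log2 difference 0.46 ± 0.19 (SE), p = 0.01895, adjusted p = 0.156). AA exceeded YNG as well (log2 difference 0.39 ± 0.19 (SE), p = 0.0465, adjusted p = 0.181, permutation p = 0.0518), and Irf7 was not called between AA and AV (log2 difference -0.065, p = 0.725). Against YNG, series a gave 0.86 (p = 0.00332) for AV and 0.82 (p = 0.00656) for AA. Series b gave -0.028 (p = 0.894) for AV and -0.080 (p = 0.704) for AA, so neither rise was seen there. ADQ was lower than AV (log2 difference -0.56 ± 0.18 (SE), p = 0.00396, adjusted p = 0.286) and was not called against YNG (log2 difference -0.10, p = 0.609). Irf7 was also the one member called between the drugs, with AA above ADQ (log2 difference 0.49 ± 0.19 (SE), p = 0.0117, adjusted p = 0.981), against 2.13% of all genes higher and 2.4% lower. That difference was 0.53 (p = 0.0768) in series a and 0.46 (p = 0.0211) in series b. The highest AV value belonged to rat 4009, and without it AV against YNG missed the threshold (log2 difference 0.34, p = 0.0556), as it did without the YNG rat V5 (log2 difference 0.36, p = 0.0586). Rat 4009 and AA rat 3985, highest for Irf7 in their groups, also had the highest summed choroid plexus level there (1420 in AV and 990 in AA). The medians of that level were 88.3 in AV and 92.4 in AA, and its part in Irf7 was not tested. Irf7 values were whole multiples of 1 estimated read in 31 of 44 rats, fewer than for the other members (43 or 44).

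Irf9 (ENSRNOG00000019478), the DNA-binding part of that complex, was called higher in AA than in YNG. Normalized values, again as lowest, median and highest, were 143, 195 and 237 for YNG and 120.2, 246 and 359.9 for AV. The treated rats had 174, 259.6 and 367 (AA) and 125, 236 and 304 (ADQ). AA rats lay highest, with 10 of 11 above the YNG median and 7 of 11 above the highest YNG rat. In ADQ 10 of 11 were above the YNG median too, and 5 of 11 above the highest YNG rat. AA rat 4107, the highest of all (367), also had the highest summed CA1 level, whose part in Irf9 was not tested. AA exceeded YNG (log2 difference 0.41 ± 0.15 (SE), p = 0.00758, adjusted p = 0.0772), at 0.60 (p = 7.42e-04) in series a and 0.23 (p = 0.329) in series b. The AV difference had the same sign and was not called (log2 difference 0.23, p = 0.111), with 8 of 12 AV rats above every YNG rat and the lowest AV rat (4572, 120.2) below all of them. Without rat 4572 it was called (log2 difference 0.32, p = 0.02201). ADQ against YNG was not called (log2 difference 0.20, p = 0.174), and became so without ADQ rat 4106 (log2 difference 0.29, p = 0.0458). Irf9 was the one member called lower in neither treated group against AV (log2 difference 0.18, p = 0.215 in AA and log2 difference -0.031, p = 0.826 in ADQ). Over all 3 older groups it was called higher than in YNG (log2 difference 0.28 ± 0.12 (SE), p = 0.02399, adjusted p = 0.0971).

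Isg15 (ENSRNOG00000021802), a ubiquitin-like protein that is joined to other proteins after infection, was lower in both treated groups than in AV. Young rats had normalized values of 30.4, 42.2 and 68.7 (lowest, median, highest) and AV rats of 24.5, 51.7 and 92.6. For AA these were 10.7, 27.1 and 77.6, and for ADQ 23.03, 34.6 and 41.2. All 11 ADQ rats and 10 of 11 AA rats lay below the AV median, and 3 of 11 AA rats lay below every AV rat. The differences from AV were called in AA (log2 difference -0.71 ± 0.21 (SE), p = 0.00194, adjusted p = 0.832) and in ADQ (log2 difference -0.59 ± 0.21 (SE), p = 0.00826, adjusted p = 0.3903). AV itself was not called against YNG (log2 difference 0.23, p = 0.305), and its spread was wide, with 3 of 12 AV rats above every YNG rat and 2 below every YNG rat. AA was also below YNG (log2 difference -0.48 ± 0.22 (SE), p = 0.0389, adjusted p = 0.163), and 6 of 11 AA rats were below the lowest YNG rat, but the permutation test over rats gave p = 0.0653. ADQ against YNG was not called (log2 difference -0.36, p = 0.112), but the permutation test over rats gave p = 0.0175 and all 11 ADQ rats were below the YNG median. Without the 4 AV rats with high Prf1, the AA difference from AV was -0.54, p = 0.0243 and the ADQ difference -0.43, p = 0.0714.

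Ifit3 (ENSRNOG00000022839), which binds other Ifit proteins in the recognition of foreign RNA, rose in AV and was lower in ADQ than in AV. Its lowest, median and highest normalized values in YNG rats were 9.79, 17.2 and 47.8. AV rats stood at 11.3, 35.4 and 124, AA rats at 15.7, 22.8 and 54.3 and ADQ rats at 9.38, 18.6 and 43.02. Of the 12 AV rats, 11 were above the YNG median, and rat 3989 stood at 124, more than the second highest rat of any group (54.8, also AV). AV exceeded YNG (log2 difference 0.84 ± 0.29 (SE), p = 0.00621, adjusted p = 0.102), and ADQ was below AV (log2 difference -0.76 ± 0.29 (SE), p = 0.0107, adjusted p = 0.403). AA lay between them and was called against neither AV (log2 difference -0.37, p = 0.206) nor YNG (log2 difference 0.47, p = 0.119). The 2 called differences without the 4 AV rats with high Prf1 were 0.50, p = 0.101 and -0.42, p = 0.158. In YNG, Ifit3 ran from 9.79 to 21.8 in series a and from 19.3 to 47.8 in series b. The AV difference from YNG was 1.51 (p = 2.69e-04) in series a and -0.045 (p = 0.894) in series b. The ADQ difference from AV kept its sign in both series, at -0.42 (p = 0.274) in series a and -1.01 (p = 0.00279) in series b.

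Oasl2 (ENSRNOG00000028814), a member of the oligoadenylate synthetase family of antiviral proteins, had its lowest median in ADQ. Normalized values, again as lowest, median and highest, were 66.7, 95.1 and 116 for YNG and 56.8, 104 and 179 for AV. The treated rats had 53.96, 73.3 and 107 (AA) and 41.7, 64.7 and 98.3 (ADQ). All 11 ADQ rats and 10 of 11 AA rats lay below the AV median. Oasl2 had the smallest p among the members between ADQ and AV (log2 difference -0.69 ± 0.16 (SE), p = 5.84e-05, adjusted p = 0.134), and was lower in AA than in AV (log2 difference -0.50 ± 0.16 (SE), p = 0.00234, adjusted p = 0.837). It was also lower in ADQ than in YNG (log2 difference -0.46 ± 0.16 (SE), p = 0.00695, adjusted p = 0.0665), where 7 of 11 ADQ rats were below every YNG rat, and not called in AA against YNG (log2 difference -0.27, p = 0.101, permutation p = 0.0353) or AV against YNG (log2 difference 0.23, p = 0.158). The ADQ difference from AV was near the same size in both series, at -0.71 (p = 0.00561) in series a and -0.65 (p = 0.00485) in series b. With the 4 AV rats left out it was -0.47, p = 0.00482, and that of AA from AV -0.29, p = 0.0794.

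Bst2 (ENSRNOG00000059900), also called tetherin, holds budding viruses on the cell surface. Young rats had normalized values of 33.6, 56.2 and 116 (lowest, median, highest) and AV rats of 37.8, 89.96 and 199. For AA these were 37.5, 69.5 and 107, and for ADQ 42.3, 63.3 and 84.2. Its values rest on the sum of 2 rows of the table. AV exceeded YNG (log2 difference 0.52 ± 0.20 (SE), p = 0.0125, adjusted p = 0.133), with 10 of 12 AV rats above the YNG median. That difference was 0.84 (p = 0.00699) in series a and 0.067 (p = 0.777) in series b. ADQ was below AV (log2 difference -0.47 ± 0.20 (SE), p = 0.0217, adjusted p = 0.459), with all 11 ADQ rats below the AV median. This call was lost without AV rat 3999 (log2 difference -0.36, p = 0.0619) and without AV rat 4571 (log2 difference -0.39, p = 0.0526), the highest and second highest AV rats. Bst2 was not called in AA against AV (log2 difference -0.26, p = 0.195), AA against YNG (log2 difference 0.27, p = 0.203) or ADQ against YNG (log2 difference 0.057, p = 0.783). Leaving out the 4 AV rats, AV against YNG gave 0.34, p = 0.109 and ADQ against AV -0.29, p = 0.171.

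Gbp2 and Gbp5 are guanylate-binding proteins, large GTPases that interferon gamma induces strongly and that coat intracellular pathogens. Gbp2 (ENSRNOG00000031743) was the member with the widest spread in AV. Its lowest, median and highest normalized values in YNG rats were 24.9, 31.7 and 52.1. AV rats stood at 19.5, 51.7 and 376, AA rats at 20.3, 32.8 and 65.7 and ADQ rats at 16.02, 33.9 and 45.9. In AV, rats 3999, 3989, 4568 and 4009 stood at 376, 219, 121 and 118, and these are the 4 rats with high Prf1. The highest value in any other rat of the study was 65.7. With all rats, AV exceeded YNG (log2 difference 0.83 ± 0.33 (SE), p = 0.0146, adjusted p = 0.142), and AA (log2 difference -0.80 ± 0.32 (SE), p = 0.0161, adjusted p = 0.999) and ADQ (log2 difference -0.97 ± 0.32 (SE), p = 0.00391, adjusted p = 0.284) were below AV. Without the 4 rats the differences were 0.061, p = 0.8002 for AV against YNG, -0.027, p = 0.908 for AA against AV and -0.20, p = 0.398 for ADQ against AV. The permutation test over rats also missed the threshold for AV against YNG (p = 0.0604) and AA against AV (p = 0.0774). Leaving out rat 3999 alone was enough to lose AA against AV (log2 difference -0.57, p = 0.0513). Neither treated group was called against YNG (log2 difference 0.034, p = 0.9202 in AA and log2 difference -0.14, p = 0.6800 in ADQ).

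Gbp5 (ENSRNOG00000032240), which also promotes inflammasome assembly, was called lower in both treated groups than in YNG and in AV. Normalized values, again as lowest, median and highest, were 24.9, 44.9 and 60.4 for YNG and 17.5, 33.5 and 158 for AV. The treated rats had 18.3, 25.1 and 44.1 (AA) and 13.4, 25.02 and 37.96 (ADQ). All 11 AA and all 11 ADQ rats lay below the YNG median, and 5 of 11 in each group lay below every YNG rat. The difference from YNG was called in AA (log2 difference -0.71 ± 0.24 (SE), p = 0.00436, adjusted p = 0.0633) and in ADQ (log2 difference -0.73 ± 0.24 (SE), p = 0.00345, adjusted p = 0.0493), and the ADQ value passed the adjusted threshold. AV against YNG was not called (log2 difference 0.039, p = 0.867), with 4 of 12 AV rats above every YNG rat and 7 of 12 below the YNG median. Gbp5 was below AV in AA (log2 difference -0.75 ± 0.23 (SE), p = 0.00181, adjusted p = 0.832) and in ADQ (log2 difference -0.77 ± 0.23 (SE), p = 0.001398, adjusted p = 0.229), and both calls held without the 4 AV rats (log2 difference -0.41, p = 0.0445 and log2 difference -0.43, p = 0.0356). Over all 3 older groups Gbp5 was the member called lower than YNG (log2 difference -0.47 ± 0.19 (SE), p = 0.0207, adjusted p = 0.0889).

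Usp18 (ENSRNOG00000037198), the protease that removes Isg15 and restrains the type I receptor, was lower in ADQ than in AV. Young rats had normalized values of 10.8, 19.1 and 42.5 (lowest, median, highest) and AV rats of 10.2, 32.2 and 59.99. For AA these were 9.15, 19.7 and 49.7, and for ADQ 7.01, 17.9 and 41.8. In ADQ, 10 of 11 rats lay below the AV median, and the difference was called (log2 difference -0.83 ± 0.27 (SE), p = 0.00324, adjusted p = 0.266), also without the 4 AV rats (log2 difference -0.61, p = 0.0448). AV against YNG missed the threshold (log2 difference 0.53 ± 0.27 (SE), p = 0.0577, adjusted p = 0.252), with 10 of 12 AV rats above the YNG median, and was called when 1 of 6 other rats was left out, with the smallest p without AV rat 4572 (log2 difference 0.67, p = 0.0151). With the 4 AV rats with high Prf1 left out it was 0.31, p = 0.304. AA against AV was not called (log2 difference -0.48, p = 0.0817), and was called without AA rat 3996, AV rat 4011 or AV rat 4572 (log2 difference -0.61, p = 0.0224 in the last). Without the 4 AV rats with high Prf1 it was -0.26, p = 0.392. Between the series the AV difference from YNG was 1.04 (p = 0.00808) in series a and -0.14 (p = 0.6900) in series b. In YNG, series a ran from 10.8 to 26.9 and series b from 19.6 to 42.5.

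**Figure D3:**
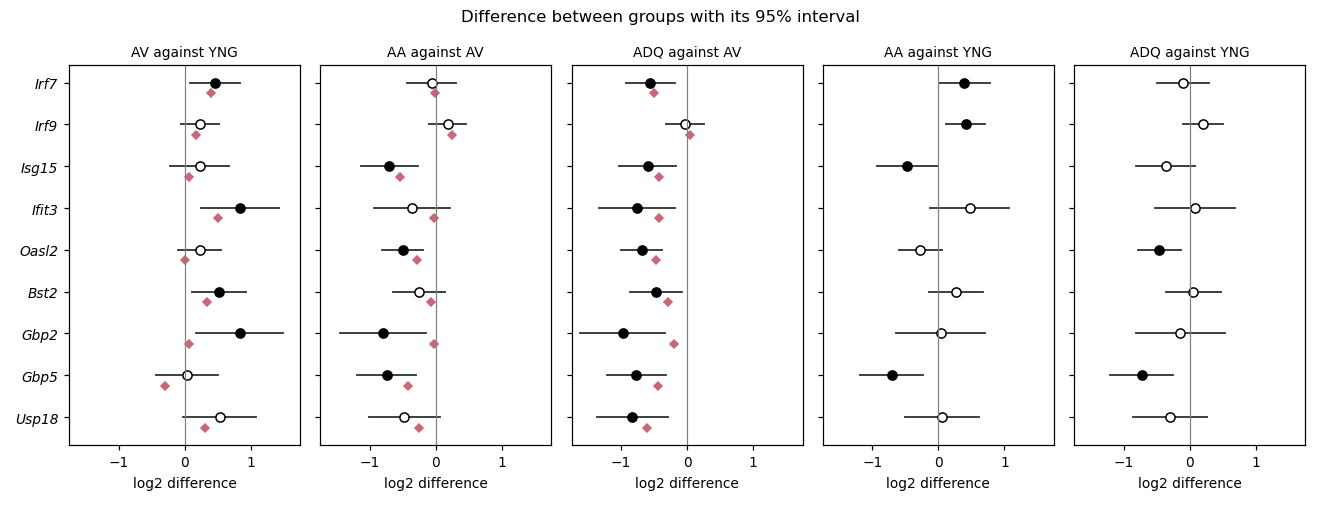
Log2 difference of each member (circles) with its 95% interval in 5 comparisons, filled where the unadjusted p was below 0.05 and open otherwise. Pink diamonds in the comparisons with AV give the value without the 4 AV rats with high Prf1; for Gbp2 in AV against YNG it moves from 0.83 to 0.061.

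The calls of the members in the treated groups against YNG were then set beside those of all genes. In AA, Irf7 and Irf9 were higher (2 of 9, against 12.6% of all genes) and Isg15 and Gbp5 lower (2 of 9, against 14.1%). The calls of Irf7 and Isg15 in AA were lost in 13 and 11 of 44 leave-one-out fits, with p up to 0.125 for Irf7 and 0.115 for Isg15. In ADQ, none of the 9 was higher (13.5% of all genes) and Oasl2 and Gbp5 were lower (2 of 9, against 14.6%). For the older rats of all 3 groups against YNG, 1 of 9 was higher, Irf9 (15.7% of all genes), and 1 of 9 lower, Gbp5 (16.7%). Between AA and ADQ the member differences other than Irf7 ran from -0.11 (Isg15, 95% interval -0.55 to 0.33) to 0.39 (Ifit3, -0.19 to 0.98), and none was called. These intervals leave room for differences of either sign.

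Group differences from YNG were also compared between the 2 rat number series. The interaction between series and group had p below 0.05 for Irf7, Ifit3 and Usp18 in AV against YNG, for Irf7 and Ifit3 in AA against YNG, and for Irf7, Ifit3 and Usp18 in ADQ against YNG. It had p below 0.05 for 21.8%, 17.3% and 8.89% of all genes in the same comparisons. Irf7 was 85.2 ± 22.1 (SD, n = 6) in YNG rats of series a and 118 ± 39.6 (SD, n = 4) in those of series b. The AV difference of Irf7 from YNG was 0.86 (p = 0.00332) in series a and -0.028 (p = 0.894) in series b. Within series a, 6 of 9 members were called higher in AV than in YNG, against 15.2% of all genes, and within series b 0 of 9 were, against 3.77%. For AA against AV, ADQ against AV and AA against ADQ 0 of 9 members had an interaction p below 0.05, against 4.71%, 4.03% and 4.37% of all genes. ADQ was below AV in 5 of 9 members in each series, against 3.85% of all genes in series a and 4.75% in series b. Those 5 were Isg15, Gbp5, Gbp2, Oasl2 and Bst2 in series a and Irf7, Gbp5, Oasl2, Ifit3 and Usp18 in series b.

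Upstream of the members, the pathway's receptors and signal carriers were all measured. Of the 12 interferon ligand genes listed, 1 was found, Ifna4, at a group mean of 0.185 (AA) to 1.24 (AV) and below the filter, and neither Ifnb1 nor Ifng was in the table used here. Of all genes, 10.6% were called higher and 10.7% lower in AV against YNG, and 5.9% lower in ADQ against AV. Ifnar1 was 1105 ± 110.4 (SD, n = 10) in YNG and 1065 ± 105 (n = 12) in AV (log2 difference -0.054, p = 0.406), Ifnar2 was not called either (log2 difference 0.14, p = 0.114), and the same held for Ifngr1 (log2 difference 0.13, p = 0.1095) and Ifngr2 (log2 difference 0.089, p = 0.384). Of the 6 receptor genes, 2 were higher in AV than in YNG, among them Ifnlr1, the lambda receptor (log2 difference 0.93, p = 0.0388), and 2 were lower in ADQ than in AV, Ifngr1 (log2 difference -0.22, p = 0.00861) and Il10rb (log2 difference -0.35, p = 0.0227). Without the 4 AV rats with high Prf1, 0 receptor genes were called in either comparison, against 5.31% of all genes higher in AV than in YNG and 2.6% lower in ADQ than in AV. The differences were then 0.80, p = 0.1095 for Ifnlr1 in AV against YNG and -0.16, p = 0.0616 for Ifngr1 and -0.17, p = 0.2899 for Il10rb in ADQ against AV. Among 13 kinases and transcription factors, AV exceeded YNG in 4 and fell below it in 0. They included Stat3 (log2 difference 0.31 ± 0.077 (SE), p = 2.06e-04, adjusted p = 0.0191), Irf1 (log2 difference 0.43 ± 0.11 (SE), p = 3.74e-04, adjusted p = 0.0283) and Irf2 (log2 difference 0.26, p = 0.00577). With those rats left out 3 of the 13 were higher, against 5.31% of all genes. Stat3 (log2 difference 0.17, p = 0.0233, adjusted p = 0.494) and Irf1 (log2 difference 0.18, p = 0.0380, adjusted p = 0.525) were then still called but no longer passed the adjusted threshold. Stat2, the partner of Irf9, was not called (log2 difference 0.070, p = 0.224). Irf1, a factor that interferon gamma induces, was lower than in AV in AA (log2 difference -0.34, p = 0.003296) and in ADQ (log2 difference -0.34, p = 0.00336). Neither call remained without the 4 AV rats, at -0.0902, p = 0.284 in AA and -0.0895, p = 0.287 in ADQ.

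The largest list held 49 other type I interferon stimulated genes tested of 60 listed. It had 23 genes called higher and 0 called lower in AV against YNG, where 10.6% of all genes were higher and 10.7% lower. Its median log2 difference was 0.41, against -0.0017 over all genes. Its leading genes were Ifit2 (log2 difference 0.77 ± 0.13 (SE), p = 6.66e-07, adjusted p = 6.50e-04), a relative of Ifit3, Slfn5 (log2 difference 1.06 ± 0.20 (SE), p = 2.76e-06, adjusted p = 0.00165), a Schlafen family member, Apol3 (log2 difference 1.17 ± 0.26 (SE), p = 4.43e-05, adjusted p = 0.00853) and Dtx3l (log2 difference 0.76 ± 0.18 (SE), p = 9.70e-05, adjusted p = 0.0128), an E3 ubiquitin ligase. In ADQ against AV 20 of the 49 were lower and 0 higher (median -0.32), and in AA against AV 11 lower and 1 higher (median -0.26), with medians over all genes of 0.0081 and 0.00093. Of all genes, 5.9% were lower and 3.42% higher in ADQ against AV, and 3.1% lower and 1.4% higher in AA against AV. In the fit without the 4 AV rats, 6 of 49 were higher in AV than in YNG (median 0.14), 1 was lower in ADQ than in AV (median -0.071) and 0 were lower in AA than in AV (median -0.042). The shares of all genes called in the same directions in that fit were 5.31%, 2.6% and 1.17%. Ifit2 and Slfn5 stayed higher in AV than in YNG in that fit (log2 difference 0.63, p = 2.24e-05, adjusted p = 0.0146 and log2 difference 0.73, p = 3.32e-04, adjusted p = 0.0909). In the same fit Apol3 (log2 difference 0.73, p = 0.00591, adjusted p = 0.315) and Dtx3l (log2 difference 0.50, p = 0.00897, adjusted p = 0.370) were still called as well. Ifit2 and Slfn5 were also higher than in YNG in AA (log2 difference 0.51, p = 4.70e-04 for Ifit2 and log2 difference 0.73, p = 8.02e-04 for Slfn5) and in ADQ (log2 difference 0.46, p = 0.001602 and log2 difference 0.77, p = 3.95e-04).

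Of 21 interferon gamma induced genes tested (30 listed), AV exceeded YNG in 8 (10.6% of all genes) and was below it in 0 (10.7%). Against AV, 11 were lower and 0 higher in ADQ (5.9% and 3.42% of all genes), and 7 lower and 0 higher in AA (3.1% and 1.4%). Cd74, the invariant chain of MHC class II, had the largest difference among the named genes (log2 difference 2.18 ± 0.45 (SE), p = 1.71e-05, adjusted p = 0.00504), with a median of 75.5 in YNG and 248 in AV and a highest AV value of 4005 in rat 3999. Its difference fell to 1.5006 when the 4 AV rats were left out (p = 4.53e-04, adjusted p = 0.108). Tap2, a peptide transporter of class I presentation, was higher in all older groups (log2 difference 0.46, p = 1.63e-04 in AV, log2 difference 0.43, p = 5.24e-04 in AA and log2 difference 0.43, p = 4.87e-04 in ADQ) and was not called between them and AV (log2 difference -0.034, p = 0.759 in AA and log2 difference -0.031, p = 0.778 in ADQ). Psmb9, an immunoproteasome subunit, and Nlrc5, the transactivator of class I genes, were lower in ADQ than in AV (log2 difference -0.77 ± 0.19 (SE), p = 1.95e-04, adjusted p = 0.134 and log2 difference -0.995 ± 0.26 (SE), p = 4.25e-04, adjusted p = 0.185). Without the 4 AV rats the counts for this list were 2 higher in AV than in YNG, 3 lower and 1 higher in ADQ than in AV, and 0 lower and 1 higher in AA than in AV. The shares of all genes in that fit were 5.31%, then 2.6% and 2.24%, and then 1.17% and 1.25%. In that fit Tap2 in AV against YNG was at 0.34 (p = 0.00571, adjusted p = 0.3096), and in ADQ against AV Psmb9 was at -0.51 (p = 0.0118) and Nlrc5 at -0.55 (p = 0.0341). Among 16 nucleic acid sensors and adaptors, 5 were higher in AV than in YNG, 4 lower in AA than in AV and 5 lower in ADQ than in AV. The shares of all genes were 10.6%, 3.1% and 5.9%. Without the 4 AV rats the counts of sensors and adaptors were 2, 1 and 2, against 5.31%, 1.17% and 2.6% of all genes. Trim25, a ubiquitin ligase of the RNA sensing pathway, led in AV (log2 difference 0.85 ± 0.21 (SE), p = 2.15e-04, adjusted p = 0.0196), followed by Zbp1, a sensor of Z-form nucleic acids (log2 difference 1.495 ± 0.43 (SE), p = 0.00121, adjusted p = 0.0508). Leaving out the 4 AV rats, Trim25 was at 0.53 (p = 0.0178, adjusted p = 0.449) and Zbp1 at 1.04 (p = 0.0334). Sting1, the adaptor of cytosolic DNA sensing, and Unc93b1, which carries endosomal Toll-like receptors, were lower in ADQ than in AV (log2 difference -0.53 ± 0.16 (SE), p = 0.001596, adjusted p = 0.231 and log2 difference -0.43 ± 0.13 (SE), p = 0.00203, adjusted p = 0.238), also without the 4 AV rats (log2 difference -0.42, p = 0.0188 and log2 difference -0.31, p = 0.0355).

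Among the inhibitors of the pathway, calls were found in both directions. Of 13 tested, AV exceeded YNG in 3 (10.6% of all genes) and was below it in 2 (10.7%), with a list median of -0.042. In each treated group 1 was lower than in AV, against 3.1% of all genes in AA and 5.9% in ADQ. Leaving out the 4 AV rats with high Prf1, AV exceeded YNG in 1 (5.31% of all genes) and was below it in 2 (4.01%). In that fit 0 were lower in either treated group, against 1.17% in AA and 2.6% in ADQ. Socs3, a feedback inhibitor of STAT signaling, was higher in AV (log2 difference 0.91 ± 0.27 (SE), p = 0.00148, adjusted p = 0.0567). Otud5, a deubiquitinase, and Trex1, an exonuclease that degrades cytosolic DNA, were lower in AV (log2 difference -0.17, p = 0.00408 and log2 difference -0.45, p = 0.00459). Ptpn6, a phosphatase of blood and microglial cells, was lower in ADQ than in AV (log2 difference -0.50 ± 0.13 (SE), p = 4.61e-04, adjusted p = 0.185). That call was lost without the 4 AV rats (log2 difference -0.22, p = 0.0625), while Socs3 (log2 difference 0.65, p = 0.02599), Otud5 (-0.15, p = 0.0285) and Trex1 (-0.35, p = 0.0439) in AV against YNG were still called.

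**Figure D4:**
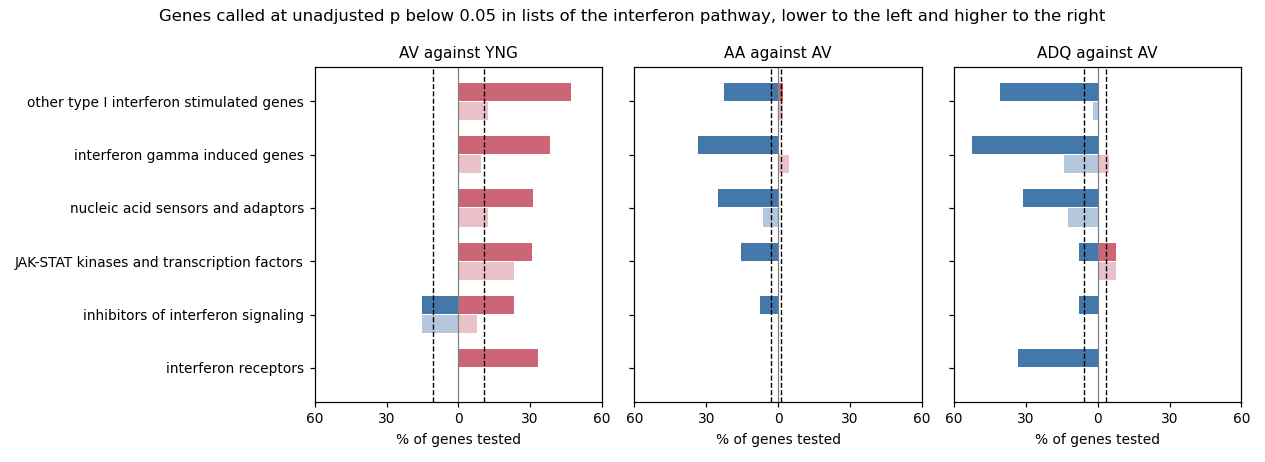
Share of the genes tested in 6 lists that was called lower (blue, to the left) or higher (red, to the right) at unadjusted p below 0.05, with all rats (solid bars) and without the 4 AV rats with high Prf1 (pale bars); dashed lines give the share of all genes with all rats. In AV against YNG, 23 of 49 other type I interferon stimulated genes were higher with all rats and 6 without the 4. The dashed lines do not apply to the pale bars, as 10.6% of all genes were higher with all rats and 5.31% without the 4.

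Rat by rat, the members moved together in part. Levels were taken as log2(value + 1) minus the group mean over 44 rats, and 36 pairs were tested by permutation with adjustment over the pairs. Pearson's r was positive in 35 pairs (median 0.27), and 11 pairs passed in both r and Spearman's rho. The 2 guanylate-binding proteins were the closest pair (r = 0.64, adjusted p = 0.00108, rho = 0.44, adjusted p = 0.0233, with raw p = 3.00e-05 and 0.00324). Without the 2 rats farthest from the median of Gbp5, r was 0.41, and it was 0.81 in series a and 0.019 in series b, so the relation did not hold within series b. Gbp5 and Oasl2 were correlated (r = 0.57, adjusted p = 0.00132, rho = 0.56, adjusted p = 0.00468) in both series (0.65 and 0.46), with r = 0.53 without the 2 farthest rats. Isg15 and Oasl2 were too (r = 0.51, adjusted p = 0.00281, rho = 0.44, adjusted p = 0.0233), at 0.51 and 0.54 in the series and 0.54 without the 2 farthest rats. Ifit3 and Usp18 formed another pair (r = 0.53, adjusted p = 0.00234, rho = 0.49, adjusted p = 0.0116), at 0.30 and 0.38 in the series and 0.44 without the 2 farthest. Irf9 went with Ifit3 (r = 0.44, adjusted p = 0.0129, rho = 0.41, adjusted p = 0.0267) and Usp18 (r = 0.40, adjusted p = 0.0258, rho = 0.42, adjusted p = 0.0267) but not with Oasl2, the one negative pair (r = -0.057, adjusted p = 0.779, rho = -0.022, adjusted p = 0.889). In series a and b, r of Irf9 was 0.16 and 0.40 with Ifit3 and 0.28 and 0.28 with Usp18. Without the 2 rats farthest for Irf9 it was 0.35 and 0.33. Only group means were subtracted, so r over 44 rats also holds any difference between the series. Irf7 passed with no other member, with r from 0.044 (Gbp5) to 0.29 (Oasl2). Without the 4 AV rats with high Prf1 the median r over the pairs was 0.21, and within series a and series b it was 0.39 and 0.13.

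**Figure D5:**
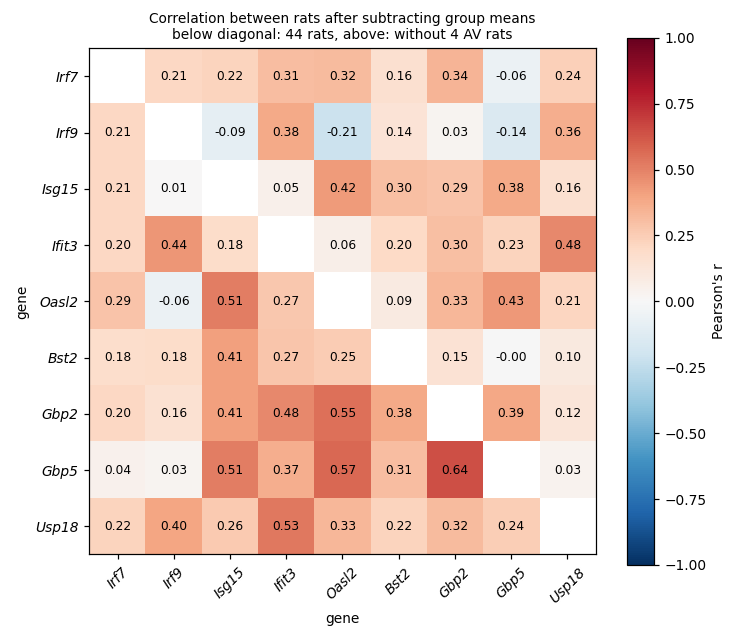
Pearson's r between members over rats after subtracting group means, with all 44 rats below the diagonal and without the 4 AV rats with high Prf1 above it. The Gbp2 and Gbp5 pair falls from 0.64 to 0.39, and the Ifit3 and Usp18 pair from 0.53 to 0.48.

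The genes outside the list whose pattern over the 44 rats was most like each member, by the same group-centred r among 13704 genes with a mean of at least 20, differed between members. For Irf9 they were Esyt3 (r = 0.83), Ptn (0.83), a secreted growth factor, and Rasl11b (0.82). For Ifit3 they were Slco1a4 (0.79), a transporter of brain endothelium, Mecom (0.76), a transcription factor, and Apold1 (0.73), an endothelial early response gene. For Gbp2 they were Itgb2 (0.78), the leukocyte integrin chain, Anxa2 (0.77) and Cav1 (0.74), the main protein of caveolae. Without the 4 AV rats with high Prf1 these were 0.696, 0.396 and 0.4995. For Gbp5 they were Nckap1l (0.70), Psmb9 (0.67) and Irgm (0.67), an immunity-related GTPase. For Oasl2 they were Ifi44 (0.67), Ly86 (0.65) and Rtp4 (0.64). For Bst2 they were Itgam (0.68), a microglial and myeloid integrin, RT1-A2 (0.65), a rat class I gene, and Gpr4 (0.61). For Usp18 they were Oas1a (0.67), Ptprm (0.62) and Plscr4 (0.59). For Isg15 they were Golm1 (0.64), Rtp4 (0.63) and Tmie (0.62). For Irf7 they were Cpped1 (0.66), Syde1 (0.64) and Lims2 (0.63). For the members other than Gbp2, r without those rats ran from 0.53 (Irgm with Gbp5) to 0.846 (Ptn with Irf9).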

How the data were processed

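Dentate gyrus RNA of 44 rats was sequenced as 1 poly(A) library each. Per the labels and the methods of the study, reads were aligned with STAR 2.5.3a to rn6 and handled in Partek, and the authors scaled read counts across libraries by the median ratio method of DESeq2. The deposited values are therefore a normalized signal per transcript row and not whole counts. Here, rows of 1 gene identifier were summed (24694 rows, 18347 identifiers), and genes with a mean of at least 5 were kept (15598). Low values of genes with 1 row were whole multiples of 1 read for 79.2% to 84.2% of values (tolerance 0.05), so no count model was run. One fit of limma 3.58.1 (R 4.3.3, trended empirical Bayes) on log2(value + 1) covered the 4 groups, and fold changes of low genes are understated on that scale. A gene was called at an unadjusted p below 0.05, the threshold of the study, with Benjamini-Hochberg adjusted p over all genes tested beside it. All tests were two-sided, and the method was tested on simulated data. Member differences were also tested by a permutation test over rats (100000 resamples, Python 3.11.15, scipy 1.17.1).

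Groups came from the age labels and, for older rats, from the deposited attributes. The members and the pathway and marker lists were chosen with earlier results of these data known. Named genes were the members, at most 4 genes of a pathway list with the smallest p below 0.05 in AV against YNG, AA against AV or ADQ against AV, some signal carriers and receptors whatever their p (one item is not reported here), and the 3 genes most like each member. Columns of the authors' own comparisons were not used. Each library was 1 rat, so p-values measure the spread between rats. Alternatives were other pseudocounts (0.5 and 5), no filter and a mean of at least 20, another scaling, array weights, the series as a covariate or each series alone, fits of the compared groups alone, and leaving out each rat.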

Additional observations from a re-analysis of the deposited data

Results flagged for a closer look

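Among 9 members in YNG, the only group of 10 or fewer rats, rat V9 stood apart as the highest for Isg15 (68.7) and Bst2 (116.2). Chance flags about 1 in 20 such groups, and 9 were looked at.

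The difference from YNG was larger in rat number series a than in series b for 3 members, in 11 of 63 tests of the interaction at an unadjusted p below 0.05 (lowest adjusted p = 0.0131). Many other genes did so too. The interaction p was below 0.05 for 21.8% of all genes in AV, 17.3% in AA, 8.89% in ADQ and 20.3% in all older rats against YNG. For AV against YNG the difference in series a minus that in series b was 0.89 for Irf7, 1.56 for Ifit3 and 1.18 for Usp18 on the log2 scale. For AA against YNG it was 0.90 for Irf7 and 1.57 for Ifit3. For ADQ against YNG it was 0.83 for Irf7, 2.15 for Ifit3 and 1.68 for Usp18. For the older rats of all 3 groups it was 0.87 for Irf7, 1.76 for Ifit3 and 1.302 for Usp18. These comparisons share the YNG rats, of which 6 are in series a and 4 in series b. The part of the series in these values was not tested further.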

How the results depend on the processing

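Of the 4 members called between AV and YNG, 0 were called with series b alone and 1 without the AV rats with Prf1 above 100, an alternative chosen after seeing the data. With series b alone the sign changed for Irf7 (-0.028), Irf9 (-0.024), Ifit3 (-0.045) and Usp18 (-0.14) in AV against YNG, for Irf7 (-0.080), Gbp2 (-0.20), Ifit3 (-0.39) and Usp18 (-0.54) in AA against YNG, for Irf9 (-0.044), Ifit3 (-1.05) and Bst2 (-0.26) in ADQ against YNG, and for Gbp5 (-0.14) and Gbp2 (-0.051) in AA against ADQ. With series a alone it changed for Irf7 (0.29) and Usp18 (0.4999) in ADQ against YNG. Array weights turned Gbp5 (-0.32) and Oasl2 (-0.10) in AV against YNG, Gbp2 (-0.099) in AA against YNG and Gbp5 (-0.092) in AA against ADQ. Leaving out the rats with high Prf1 turned Gbp5 (-0.29) in AV against YNG and Irf9 (0.037) in ADQ against AV. Leaving out 1 rat turned Gbp5 in AV against YNG (-0.13 to 0.15), Gbp2 (-0.053 to 0.11) and Usp18 (-0.060 to 0.17) in AA against YNG, Ifit3 (-0.027) and Bst2 (-0.030) in ADQ against YNG, Irf7 in AA against AV (0.055), Irf9 in ADQ against AV (0.054), and Isg15 (0.025) and Gbp5 (-0.063) in AA against ADQ. For AA against YNG the count of 4 was 1 in series b and as low as 2 when 1 rat was left out, and for ADQ against YNG the count of 2 was 5 in series b. For AA against AV the count of 4 was 2 in series a and 2 without the rats with high Prf1. For ADQ against AV the count of 8 was 5 in series a, 5 in series b and 4 without those rats. For AA against ADQ the count of 1 was 2 with array weights, 0 in series a and 3 in series b. For all older rats against YNG the count of 2 was 5 with array weights, 4 in series a, 1 in series b and 0 to 5 when 1 rat was left out. In series a, 1.56% to 17.5% of all genes were called higher and 2.29% to 20.5% lower over these comparisons, and in series b 1.596% to 7.19% higher and 2.46% to 5.17% lower, with 4.33% higher and 2.57% lower in ADQ against YNG. Of 118 pathway genes, the 47 called in AV against YNG were 10 in series b and 16 without the rats with high Prf1, the 22 in ADQ against YNG were 11 in series b, the 26 in AA against AV were 16 in series a, 8 in series b and 3 without those rats, the 41 in ADQ against AV were 23, 19 and 8, and the 38 in all older rats were 12 in series b. With all rats, the shares of all genes higher and lower were 10.6% and 10.7% in AV against YNG and 13.5% and 14.6% in ADQ against YNG. They were 1.4% and 3.1% in AA against AV, 3.42% and 5.9% in ADQ against AV and 15.7% and 16.7% in all older rats. Without the rats with high Prf1 they were 5.31% and 4.01% in AV against YNG, 1.25% and 1.17% in AA against AV and 2.24% and 2.6% in ADQ against AV. Over the single differences of the members under all alternatives, 569 had the same direction and side of the threshold, 36 lost the call, 22 gained one and 21 changed sign (leave-one-out fits apart). A series alone has fewer rats, and otherwise the cause was not tested. No paired analysis was possible because the replicate numbers only name rats. Usp18, with 7 to 92 estimated reads a rat, is the member with the least depth.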
